A study of Mus musculus with 26 samples.

Results

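The genes described here are 38 cell cycle genes, measured on microarrays in subcutaneous inguinal white adipose tissue (WAT) of refed mice. They were taken as a given list, by the gene name that the array's annotation gives each probe, with the probe of highest mean value standing for each gene. Of the 38 genes, 35 had a probe that passed the filter on spot quality, among 25407 gene names tested in all. Melk, Bub1 and Nusap1 did not pass and are described apart. The probes are oligonucleotides placed on build mm9, that of Mki67 at chr7:142881591-142881650, of Top2a at chr11:98854651-98854710, of Mcm5 at chr8:77651350-77651410 and of Cdc20 at chr4:118105534-118105593. No annotation of that build was at hand to place them in an exon or UTR. The list covers 9 roles, from the helicase that opens replication origins to the proteins that part the chromosomes.

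The tissue came from 2 mouse lines and 26 arrays. Total ChREBP KO mice (n = 7) are Mlxipl-null and lack both the α and β isoforms of the glucose-responsive factor ChREBP, and ChREBPβ KO mice (n = 5) lack the β isoform alone, after a deletion made at its own first exon. WT littermates of the total line (total-line WT, n = 7) and of the ChREBPβ line (ChREBPβ-line WT, n = 7) served as controls, each line against its own. Nothing in the labels says more of the replicates than a number, so p-values measure the spread between these samples. Every mouse, WT included, was fasted for 24 h and then had food and water with 20% glucose for 18 h. The methods describe male C57BL6/J mice for this tissue, the deletions are not limited to adipocytes, and the age was not given in the sources used here.

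A dividing cell first loads the MCM helicase on its replication origins, then makes deoxynucleotides and copies its DNA behind the sliding clamp Pcna. Cyclin-bound Cdk1 and the Plk1 and Aurora kinases then drive mitosis, the kinetochore ties chromosomes to the spindle, and Cdc20 turns the anaphase-promoting complex on mitotic cyclins and securin. Adipocytes do not divide, so these transcripts in fat are usually read as those of progenitors, vessel cells and immune cells. Inguinal fat also holds a lymph node, in which lymphocytes can divide. In whole tissue, fewer cells of a type and less RNA per cell cannot be told apart.

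Facts of the whole series that touch these genes were as follows. Mlxipl, the targeted gene, lay between 15.62 and 16.59 in total-line WT and between 13.63 and 14.00 in total KO, on the log2 scale of quantile-normalised intensity used for every level here. In the ChREBPβ line it lay between 15.29 and 16.18 in WT and between 13.94 and 14.38 in KO. Both KO groups thus stood below their controls. The probe was well above background on all 7 total KO arrays. The ranges of the 2 KO groups overlap, so it does not tell the 2 deletions apart. Adipocyte markers were high on every array, with a mean log2 value over 10 genes between 15.29 and 16.30. The mean log2 value of 16 lymphocyte markers (Cd3e, Ccr7 and others), called the lymphocyte score from here on, lay between 10.11 and 11.69 in total-line WT and between 6.74 and 7.68 in ChREBPβ-line WT. Total KO ranged from 7.34 to 10.42 and ChREBPβ KO from 6.71 to 8.22. Of the 16 markers, 15 were well above background on all 7 arrays of WT in the ChREBPβ line, and Blk was so on 0. A missing Blk value in replicate 4 of ChREBPβ KO took its group's mean in the score.

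Many promoters of mitotic genes carry a CHR element, TTTGAA, near a CCAAT box, and many promoters of S-phase genes carry an E2F site such as TTTNGCGC, where N is any base. These are the control letters through which the DREAM and E2F complexes act on this gene class. RefSeq promoter windows of 300 bases (250 before the start and 50 after, build GRCm38.p6) were at hand for 32 of the 38 genes. Both strands were searched for each motif, so reverse complements such as TTCAAA and ATTGG count as matches. TTTGAA was found in 18 of the 32 genes and in 17.9% of all 32851 windows. CCAAT was found in 26 of the 32 genes and in 37.4% of windows, and both motifs together in 17 of the 32 genes and in 6.95% of windows. TTTNGCGC was found in 5 of the 32 genes and in 1.38% of windows. A match describes the letters and does not show that a factor binds.

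The 200 bases before the start are printed for 6 genes whose values carry the results: 3 mitotic genes with TTTGAA, 2 MCM genes with TTTNGCGC, and Tyms, which holds none of the motifs in its window and was called in none of the comparisons below. Tyms is not typical of the genes without a match. Birc5, Tk1, Melk and Nusap1 held none of the motifs in their windows either, and all were lower in total KO (below). Ube2c and Mcm7 held matches and did not fall in total KO. Capitals mark the motif matches, and neighbouring or overlapping matches run together.
Cdc20, chr4:118437344-118437543, minus strand: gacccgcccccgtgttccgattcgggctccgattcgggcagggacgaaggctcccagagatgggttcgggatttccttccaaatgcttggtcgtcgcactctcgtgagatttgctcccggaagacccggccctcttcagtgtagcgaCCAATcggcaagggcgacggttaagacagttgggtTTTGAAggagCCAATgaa
Top2a, chr11:99024190-99024389, minus strand: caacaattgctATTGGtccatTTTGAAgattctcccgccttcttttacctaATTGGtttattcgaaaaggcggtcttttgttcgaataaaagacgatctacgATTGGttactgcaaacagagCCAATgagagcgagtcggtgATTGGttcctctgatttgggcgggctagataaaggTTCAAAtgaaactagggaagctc
Mki67, chr7:135716380-135716579, minus strand: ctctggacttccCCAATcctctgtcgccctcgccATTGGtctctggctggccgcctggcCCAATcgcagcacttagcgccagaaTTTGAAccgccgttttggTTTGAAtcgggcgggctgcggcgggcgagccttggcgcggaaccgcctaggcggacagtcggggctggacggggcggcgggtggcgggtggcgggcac
Mcm5, chr8:75109309-75109508, plus strand: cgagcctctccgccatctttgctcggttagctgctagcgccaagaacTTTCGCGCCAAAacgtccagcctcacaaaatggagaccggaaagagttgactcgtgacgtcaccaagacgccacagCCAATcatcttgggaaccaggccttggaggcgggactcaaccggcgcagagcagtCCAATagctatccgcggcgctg
Mcm6, chr1:128359706-128359905, minus strand: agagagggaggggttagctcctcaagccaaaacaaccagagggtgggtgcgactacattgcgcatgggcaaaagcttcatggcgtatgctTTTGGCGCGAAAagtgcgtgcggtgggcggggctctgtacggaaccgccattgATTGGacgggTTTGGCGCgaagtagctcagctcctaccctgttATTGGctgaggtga
Tyms, chr5:30073626-30073825, minus strand: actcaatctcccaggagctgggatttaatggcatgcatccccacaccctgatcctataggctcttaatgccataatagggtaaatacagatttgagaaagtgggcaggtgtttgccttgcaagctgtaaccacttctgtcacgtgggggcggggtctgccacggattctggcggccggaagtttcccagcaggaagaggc
In Cdc20 a TTTGAA lies 18 to 13 bases before the start with CCAAT letters 53 to 49 bases before it. In the printed bases Mki67 holds 2 TTTGAA and 3 CCAAT matches, and Top2a holds 2 and 5. In Mcm5 and Mcm6 a site and its reverse overlap, as TTTCGCGCCAAA and TTTGGCGCGAAA.

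The first comparison asked how the cell cycle genes stood in total KO against WT of the same line. They were lower: 30 of the 35 genes tested fell and 0 rose, where 19.7% of all genes tested fell and 26.2% rose. Of the 30, Ttk and Kif11 passed the filter only through total-line WT, the group in which they are high. Their falls therefore add no support of their own. The median difference of the 35 genes was -0.92 on the log2 scale, beside 0.05 for all genes. The largest fall was that of Top2a, at -1.71, and the smallest among those called that of Kif23, at -0.23. Mcm7, Tyms, Pcna, Ndc80 and Ube2c did not pass the test, with differences between -0.28 and 0.02. In 4 of the 35 genes (Mki67, Ccna2, Ccnb1 and Bub1b) every total KO array lay below every WT array, against 4.68% of all genes.

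**Figure D1:**
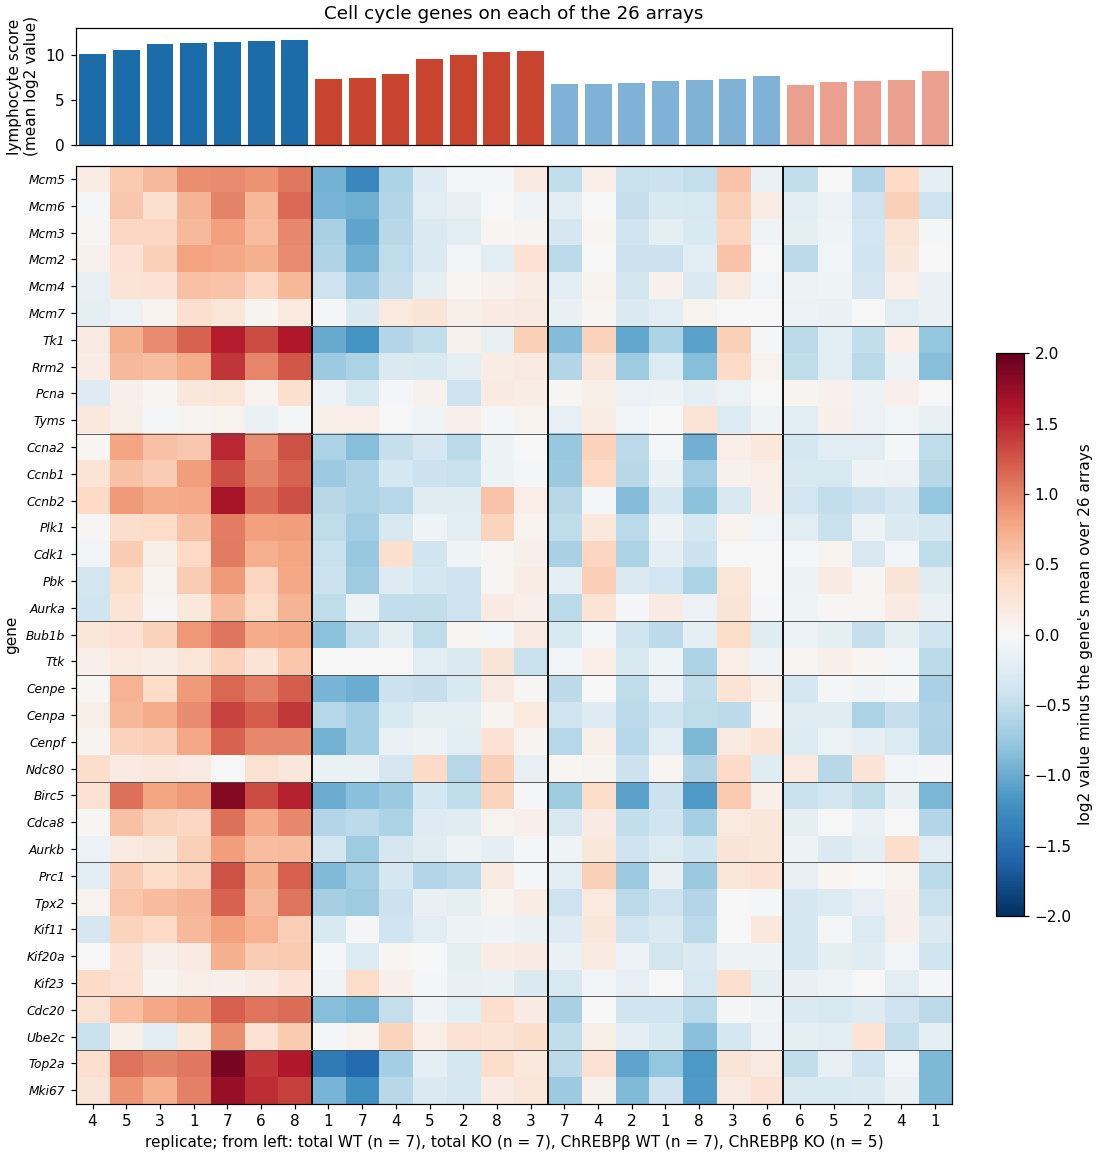
Heat map of 35 cell cycle genes (rows, by role) on 26 arrays (columns, by group and, within a group, by rising lymphocyte score), as log2 value minus the mean of the gene over 26 arrays, with the lymphocyte score of each array as bars from 0 above. The columns of total-line WT are high for most rows, and within total KO the columns at the left, of low lymphocyte score, are the lowest for most MCM rows.

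Mki67, the gene of the Ki-67 proliferation mark, lay on the WT arrays of the total line between 8.62 and 10.12 with a median of 9.38, and on the total KO arrays between 7.14 and 8.61 with a median of 8.03. The 2 groups did not overlap, and the difference was -1.48 ± 0.25 (SE; limma, adjusted p = 4.16e-05). Top2a, the topoisomerase that untangles replicated DNA, lay between 7.49 and 9.06 (median 8.24) in WT and between 5.61 and 7.50 (median 6.81) in total KO. Its groups touched at 1 array each, and the difference was -1.71 ± 0.30 (adjusted p = 5.13e-05). With Birc5 and Tk1, these were the genes of the list with the largest differences.

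The MCM2-7 helicase is loaded on DNA before S phase, and the probes of 6 of its subunits were tested. Of these, 5 fell and Mcm7 did not. Mcm5 showed the largest fall of them, lying between 8.53 and 9.44 (median 9.28) in WT and between 7.08 and 8.56 (median 8.13) in total KO, a difference of -1.17 ± 0.22 (adjusted p = 0.000101). The groups overlapped by 1 array each. Mcm6 fell by 1.03, Mcm3 by 0.94, Mcm2 by 0.92 and Mcm4 by 0.59 on the log2 scale. Mcm7, a subunit of the same ring, lay between 10.91 and 11.42 in WT and between 10.80 and 11.34 in total KO, and the difference was 0.00 ± 0.09 (adjusted p = 0.976).

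Of the 4 genes of nucleotide supply and the sliding clamp, 2 fell. Tk1, the thymidine kinase of the salvage path, lay between 7.46 and 8.88 (median 8.46) in WT and between 6.09 and 7.76 (median 6.79) in total KO, with 1 array of each group in the other's range and a difference of -1.48 ± 0.28 (adjusted p = 0.000148). Rrm2, the small subunit of ribonucleotide reductase, fell by 1.09 ± 0.20 (adjusted p = 0.00012). Tyms, the thymidylate synthase, spanned 10.26 to 10.60 in WT and 10.33 to 10.53 in total KO, with a difference of 0.02 ± 0.07 (adjusted p = 0.882). Pcna, the clamp that also serves DNA repair, differed by -0.18 ± 0.09 (adjusted p = 0.106).

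The 7 tested mitotic cyclins and kinases all fell. Ccna2, the cyclin of S phase and mitotic entry, lay between 7.26 and 8.74 (median 8.01) in WT and between 6.36 and 7.21 (median 6.76) in total KO, with no overlap and a difference of -1.23 ± 0.21 (adjusted p = 4.61e-05). Ccnb1 and Ccnb2, the cyclins that bind Cdk1 in mitosis, fell by 1.19 each, with adjusted p = 5.6e-06 and 1.96e-05. Plk1 fell by 0.76, Cdk1 itself by 0.68, Pbk, a mitotic kinase, by 0.66, and Aurka, the centrosome kinase, by 0.51. Cdk1 and Pbk were dim, being well above background on 21 and 22 of the 26 arrays, and on all 7 WT arrays of the total line.

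Of the spindle checkpoint kinases, Bub1b lay between 5.72 and 6.56 (median 6.23) in WT and between 4.67 and 5.67 (median 5.29) in total KO. The groups did not overlap, and the difference was -0.89 ± 0.15 (adjusted p = 4.09e-05). Ttk, the kinase that starts the checkpoint, fell by 0.38 ± 0.12 (adjusted p = 0.0115), but it was well above background on only 12 of 26 arrays. Of the centromere and kinetochore genes, Cenpe, a kinetochore motor, lay between 6.89 and 8.08 (median 7.72) in WT and between 5.87 and 7.05 (median 6.44) in total KO, a difference of -1.18 ± 0.19 (adjusted p = 2.86e-05). Cenpa, the histone H3 of centromeres, fell by 1.17, with the smallest adjusted p of the list (3.08e-06), and Cenpf fell by 0.94. Ndc80, which grips microtubules at the kinetochore, differed by -0.28 ± 0.15 (adjusted p = 0.147).

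All 3 genes of the chromosomal passenger complex fell. Birc5, or survivin, lay between 8.81 and 10.34 (median 9.61) in WT and between 7.52 and 8.96 (median 8.01) in total KO, a difference of -1.53 ± 0.27 (adjusted p = 5.06e-05). Its partner Cdca8 fell by 0.91 and the complex's kinase Aurkb by 0.69. All 5 tested spindle motors and microtubule proteins fell too. Prc1, which bundles the central spindle, lay between 6.69 and 8.17 (median 7.40) in WT and between 6.01 and 7.06 (median 6.37) in total KO, a difference of -1.03 ± 0.22 (adjusted p = 0.000417). The 5 tested probes of Prc1 did not give 1 value: the other 4 gave differences of -0.70, -0.33, -0.07 and 0.16, of which the first 2 passed the test. Tpx2 fell by 0.96, and the kinesins Kif11 by 0.63, Kif20a by 0.35 and Kif23 by 0.23, Kif11 being well above background on 13 of 26 arrays. The other 2 tested probes of Kif23 gave -0.53 and -0.41, both called.

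The 2 partners of the anaphase-promoting complex parted. Cdc20, its mitotic activator, lay between 7.89 and 8.77 (median 8.43) in WT and between 6.67 and 7.92 (median 7.35) in total KO, a difference of -1.14 ± 0.17 (adjusted p = 8.12e-06). The groups overlapped by 1 array on either side. Ube2c, its ubiquitin-conjugating enzyme, lay between 7.29 and 8.67 in WT and between 7.72 and 8.19 in total KO, a difference of 0.02 ± 0.16 (adjusted p = 0.917). Of the 24 genes that fell and had a promoter window, 16 held both TTTGAA and CCAAT, and of the 5 tested genes that did not fall 1 did.

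The filter asked that the scanner software found the spot and that it was well above background. The probe of Nusap1 was found on 15 of 26 arrays and well above background on 26, and that of Melk was found on 14 and well above background on 25. These 2 genes are present in the authors' deposited table of normalised values, and Bub1 is not. In that table Melk, a mitotic kinase, lay between 5.42 and 6.47 in total-line WT and between 4.74 and 5.60 in total KO, which overlap, with a difference of -0.90 ± 0.18 (adjusted p = 0.000267). Nusap1, a spindle microtubule protein, lay between 6.39 and 7.53 in WT and between 5.59 and 6.33 in total KO, which do not overlap, with a difference of -0.89 ± 0.14 (adjusted p = 1.97e-05). For the brighter of 2 Bub1 probes the mean unfiltered level was 5.34 in WT and 4.61 in total KO, and it was well above background on 7 and 2 arrays of 7.

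The second comparison asked the same of ChREBPβ KO, and there the genes did not move beyond the spread of the arrays. None of the 35 passed the test (limma, 0 called, and 0 with an unadjusted p under 0.05), where 0.0472% of all genes tested were called in either direction. The median difference was -0.02 and the single differences ran from -0.19 to 0.16. The 95% intervals of these differences reached from -0.74 to 0.67 at their widest, and in 26 of 35 genes the interval lay within 0.5 on either side of 0. For each of the 30 genes that fell in total KO, the total KO difference lay below the whole interval of the ChREBPβ difference. These genes were picked by that fall, and the error of the total KO difference was left out. Kif20a (-0.35 against a lower bound of -0.34) and Kif23 (-0.23 against -0.21) lay only just below. So this count is no test of the difference between the lines, which is given below.

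**Figure D2:**
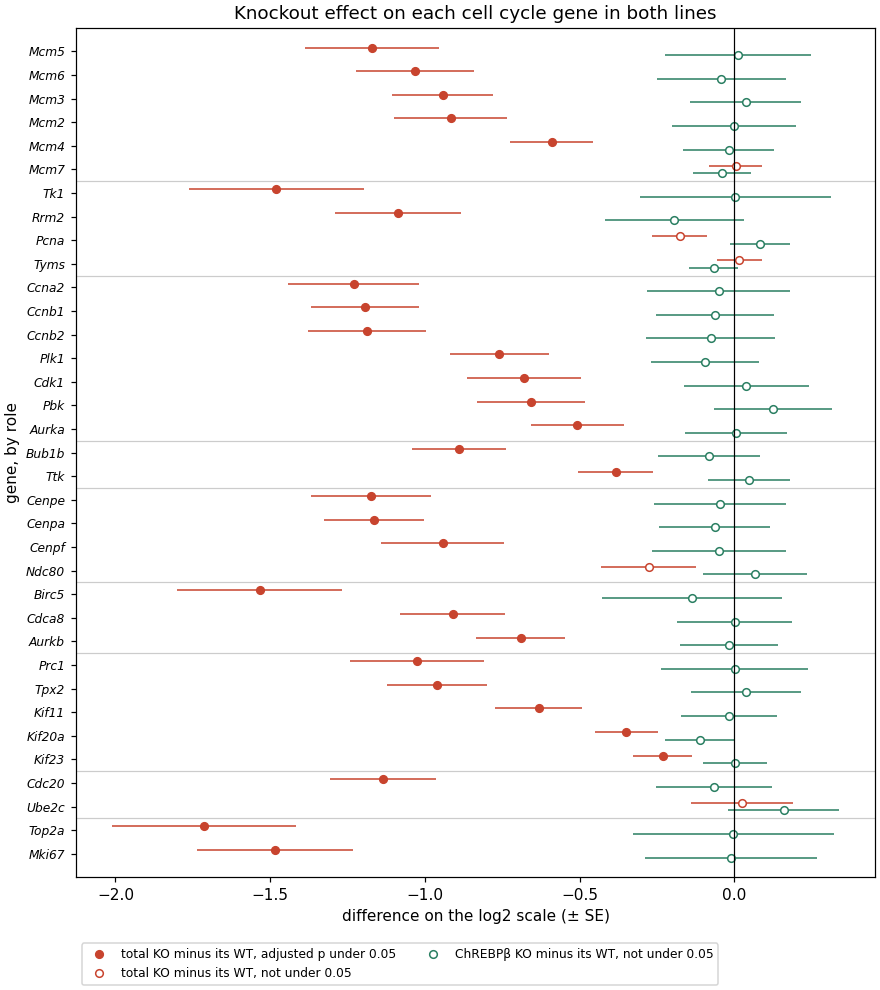
Difference between KO and WT on the log2 scale (x axis, bars are SE of the limma fit) for 35 cell cycle genes (y axis, grouped by role), in the total line (n = 7 and 7) and in the ChREBPβ line (n = 5 and 7). Filled points have an adjusted p under 0.05: 30 points of the total line lie left of 0 and are filled, and the ChREBPβ points lie between -0.19 and 0.16, none of them filled.

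Mki67 lay between 7.24 and 8.66 (median 7.96) in ChREBPβ-line WT. The 5 ChREBPβ KO arrays gave 7.48, 8.06, 8.06, 8.08 and 8.25. All 5 lie inside the WT range, and the difference was -0.01 ± 0.28 (adjusted p = 0.999). Top2a lay between 6.01 and 7.46 (median 6.63) in WT, and the KO arrays gave 6.27, 6.67, 6.75, 6.99 and 7.10, again inside the WT range. For Mcm5 the WT arrays lay between 7.90 and 8.96 (median 7.95) and the KO arrays gave 7.80, 7.89, 8.20, 8.38 and 8.78. Here 2 of the KO arrays lie just below the lowest WT array and the groups overlap, with a difference of 0.01 ± 0.24 (adjusted p = 0.999). Cdc20 lay between 6.93 and 7.59 in WT and at 7.05, 7.16, 7.25, 7.29 and 7.33 in KO, inside the WT range.

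The difference between the 2 KO effects was tested as 1 contrast, the ChREBPβ effect minus the total effect. It was above 0 for 25 of the 35 genes, where 9.94% of all genes were called above 0 and 13.1% below, and no cell cycle gene was called below. Kif11, which passed the filter only through total-line WT, is among the 25. The median difference of effects was 0.89. It was 1.71 ± 0.44 for Top2a (adjusted p = 0.00729), 1.47 ± 0.38 for Mki67 (0.0067) and 1.18 ± 0.32 for Mcm5 (0.0101). It was 1.07 ± 0.25 for Cdc20 (0.00383). For Prc1 it was 1.03 by the chosen probe, and 0.57, 0.36, 0.03 and -0.12 by its other tested probes. Of the genes that fell in total KO, Cdk1, Aurka, Ttk, Kif20a and Kif23 did not pass this test. With the slide as a fixed block 0 of the 35 passed (limma, 20 with an unadjusted p under 0.05), where 1.60% of all genes did, at a median of 1.11.

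The third comparison set the 2 control groups side by side, as both are WT and had the same refeeding. It shares its WT arrays with the comparisons above, so its values are not an independent reading of them. Of the 35 genes, 30 were lower in ChREBPβ-line WT and 0 higher, where 19.2% of all genes were lower and 26.4% higher. Ttk and Kif11, which passed the filter only through total-line WT, are among the 30. The median was -0.73, beside 0.03 for all genes, and 35 of 35 differences were below 0. In 4 of 35 genes (Top2a, Ccnb2, Cenpa and Cdc20) no array of one WT group reached the other, against 6.27% of all genes in that direction. With the scanner's background-subtracted signal the median was -1.21.

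The ChREBPβ-line WT minus total-line WT difference of Mki67 was -1.44 ± 0.25 (adjusted p = 5e-05), with a highest array of 8.66 against a lowest of 8.62 in total-line WT. Top2a stood between 6.01 and 7.46 in ChREBPβ-line WT, all below the lowest WT array of the total line, 7.49, and the difference was -1.59 ± 0.30 (adjusted p = 1e-04). Cdc20 differed by -1.14 ± 0.17 (adjusted p = 6.32e-06), Birc5 by -1.44 ± 0.27 (adjusted p = 8.75e-05) and Mcm5 by -0.92 ± 0.22 (adjusted p = 0.00109). Aurka, Mcm7, Tyms, Pcna and Ndc80 were not called.

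Over all 35 genes the mean log2 value of an array lay between 7.62 and 8.57 in total-line WT. It lay between 6.96 and 7.70 in total KO, between 7.04 and 7.74 in ChREBPβ-line WT and between 7.17 and 7.55 in ChREBPβ KO. So total-line WT stood above the other 3 groups, save for its replicate 4 (7.62), which 2 total KO arrays and 2 WT arrays of the ChREBPβ line exceeded. That replicate also had the lowest lymphocyte score of its group, 10.11. Adipocyte markers ran the other way, with a mean log2 value between 15.29 and 15.88 in total-line WT, 16.07 to 16.30 in total KO and 15.94 to 16.13 in ChREBPβ-line WT.

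The lymphocyte markers differed between the groups in the same direction as the cell cycle genes. All 16 markers were lower in total KO than in WT, with a median difference of -2.43, and all 16 were lower in ChREBPβ-line WT than in total-line WT, with a median of -4.34. Lymph node stroma genes followed them: the mean log2 value of 5 genes, among them Ccl21a and Ccl19, lay between 11.61 and 13.22 in total-line WT, 7.76 and 11.78 in total KO, and 7.96 and 8.52 in ChREBPβ-line WT. Genes of the germinal centre, where B cells divide fastest, were near background in part: Rgs13 was well above background on 6 WT and 2 KO arrays of the total line, and on 0 WT and 1 KO arrays of the ChREBPβ line. Bcl6 had a mean of 12.97 in total-line WT and 13.41 in total KO, and S1pr2 a mean of 7.36 in total-line WT and 8.17 in ChREBPβ-line WT. Of the 6 germinal centre genes 1 was lower in total KO and 0 higher, and 3 were lower and 1 higher in ChREBPβ-line WT than in total-line WT. Their mean log2 value lay between 6.45 and 7.48 in total-line WT and between 6.60 and 7.12 in total KO. Beside the counts of this paragraph, 19.7% of all genes were lower and 26.2% higher in total KO. In ChREBPβ-line WT against total-line WT, 19.2% were lower and 26.4% higher. The values of other marker lists follow, and the muscle and macrophage calls in total KO were near the share of all genes. In total KO the 12 skeletal muscle genes had a median difference of 2.42, 12 of 12 above 0 and 3 called, and 2 of 8 macrophage markers were lower. In ChREBPβ-line WT against the other WT group, 5 of 8 macrophage markers were higher and 1 lower (median 0.95), 4 of 6 adipose progenitor markers were higher (median 0.85) and 4 of 4 red blood cell genes were lower (median -0.76). The part of lymph node content, and of these other cells, in the differences between groups was not tested, and the fits that follow describe how the values move together.

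**Figure D3:**
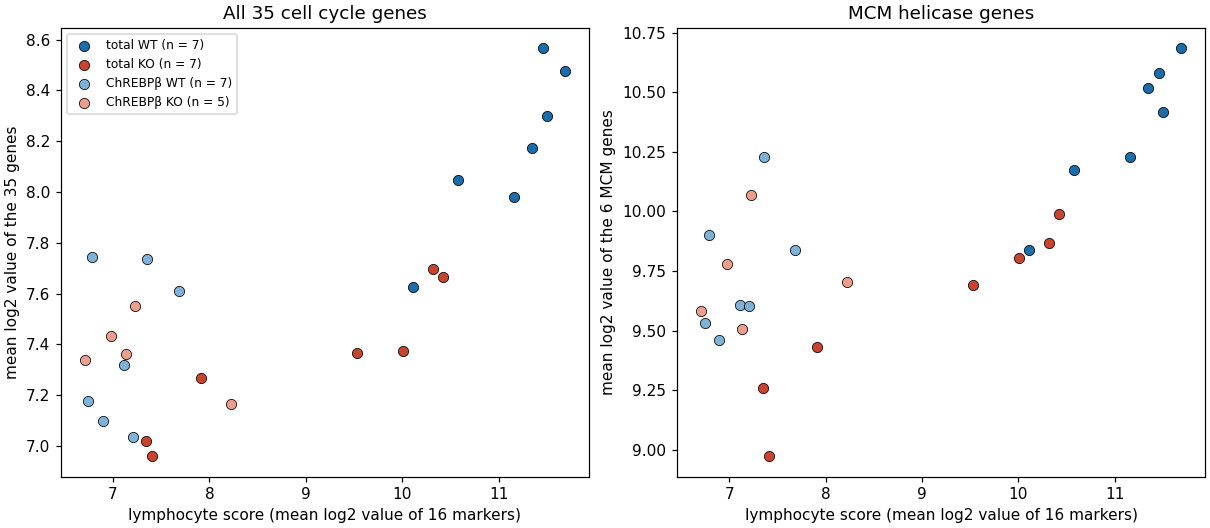
Mean log2 value of the 35 cell cycle genes (left) and of the 6 MCM genes (right) against the lymphocyte score (mean log2 value of 16 markers), 1 point an array, 26 arrays in 4 groups. In the total line the points rise from 6.96 at a score of 7.41 to 8.48 at a score of 11.69 on the left, and the ChREBPβ arrays spread between 7.04 and 7.74 at scores from 6.71 to 8.22.

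Within groups, the members were set against the lymphocyte score in a fit with a mean for each group and 1 common slope, in log2 of the gene per log2 of the score. The slope was above 0 and called for 17 of the 35 genes and below 0 for none, where 7.57% of all genes were called above 0. The median slope was 0.22. All 6 MCM genes were among the 17, Mcm7 included: Mcm5 had a slope of 0.38 ± 0.07 (adjusted p = 0.000692), Mcm2 of 0.31, Mcm6 of 0.30, Mcm3 of 0.29, Mcm4 of 0.23 and Mcm7 of 0.11 ± 0.04 (adjusted p = 0.0493). Top2a had the steepest slope of the list, 0.46 ± 0.11 (adjusted p = 0.00625), and Cdc20 the smallest adjusted p, 0.000208, with 0.31 ± 0.05. Mki67, Tk1, Bub1b and Cenpe were called as well, with slopes of 0.36, 0.40, 0.20 and 0.29. Of the mitotic cyclins and kinases 2 of 7 were called, and of the chromosomal passenger complex 0 of 3, with adjusted p between 0.0583 and 0.0652. Birc5 (0.32 ± 0.11), Ccna2 (0.22 ± 0.09) and Prc1 (0.22 ± 0.09) did not pass. These counts are of the chosen probes. Another tested probe of Prc1 was called below 0, at -0.18 (limma, adjusted p = 0.00614). Another of Cenpf, whose chosen probe was called, gave 0.13 and was not.

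The arrays of total KO show this spread directly. Replicates 2, 3, 5 and 8 had lymphocyte scores between 9.53 and 10.42, and mean values of the 35 genes of 7.37, 7.66, 7.37 and 7.70. Replicates 1, 4 and 7 had scores of 7.34, 7.91 and 7.41, and means of 7.02, 7.27 and 6.96. The 3 arrays of low score held the 3 lowest means. WT replicate 4, whose score was 10.11 and whose mean was 7.62, lay within the range of the 4 KO arrays of high score in both values.

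The slopes were also fitted in each line. In the total line alone 21 of 35 slopes were called above 0 and 1 below, where 8.14% and 5.74% of all genes were. In the ChREBPβ line alone, where the score spans less, 0 were called (limma, also 0 at an unadjusted p under 0.05), where 0.126% of all genes were, with a median slope of -0.01. The difference between the lines' slopes, ChREBPβ minus total, was called for 0 of 35 genes (limma, 2 with an unadjusted p under 0.05), where 0.00394% of all genes were called. Its median was -0.27, and 33 of 35 differences were below 0. The covariate fit below uses 1 common slope for both lines. In ChREBPβ-line WT, replicates 3, 4 and 6 had means of 7.74, 7.74 and 7.61 and the other 4 between 7.04 and 7.32, at scores between 6.74 and 7.68 for all 7. The fit on the ChREBPβ line alone and the test of the difference were added after the values were seen. Without replicate 4 of total-line WT the called slopes numbered 11, and without replicate 1 of ChREBPβ KO 23. With array weights 11 were called, beside 9.24% of all genes in either direction. With the slide as a fixed block 0 were called (limma, 13 with an unadjusted p under 0.05), beside 1.58% of all genes, at a median of 0.21.

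When the lymphocyte score entered the fit as a covariate, the total KO difference was smaller for most genes, and 4 of 35 were lower and called: Ccnb1, Cenpa, Kif23 and Cdc20. In that fit 5.66% of all genes were lower and called. The median difference went from -0.92 to -0.40, and 33 of 35 stayed below 0. Ccnb1 was at -0.80 (limma, adjusted p = 0.0166), Cenpa at -0.64 (0.0177), Cdc20 at -0.47 (0.0443) and Kif23 at -0.43 (0.022). The Kif23 values in this fit are those of its chosen probe, whose slope on the score was -0.09. Its other tested probes had slopes of 0.19 and -0.0004. Mki67 was at -0.72 (adjusted p = 0.107), Top2a at -0.73 (0.148) and Mcm5 at -0.37 (0.275). The scores of total-line WT and total KO overlap only between 10.11 and 10.42, and those of the 2 WT groups not at all, so this fit leans on the slope outside the shared range. A lost call does not show that the groups were alike. In the same fit (limma) the difference of the 2 KO effects was called for 0 of the 35 genes, with 5 at an unadjusted p under 0.05, where 6.39% of all genes were called in either direction. That of the 2 WT groups was called for 1, Kif23, which was lower, as were 2.62% of all genes. Their medians were 0.36 and 0.04.

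**Figure D4:**
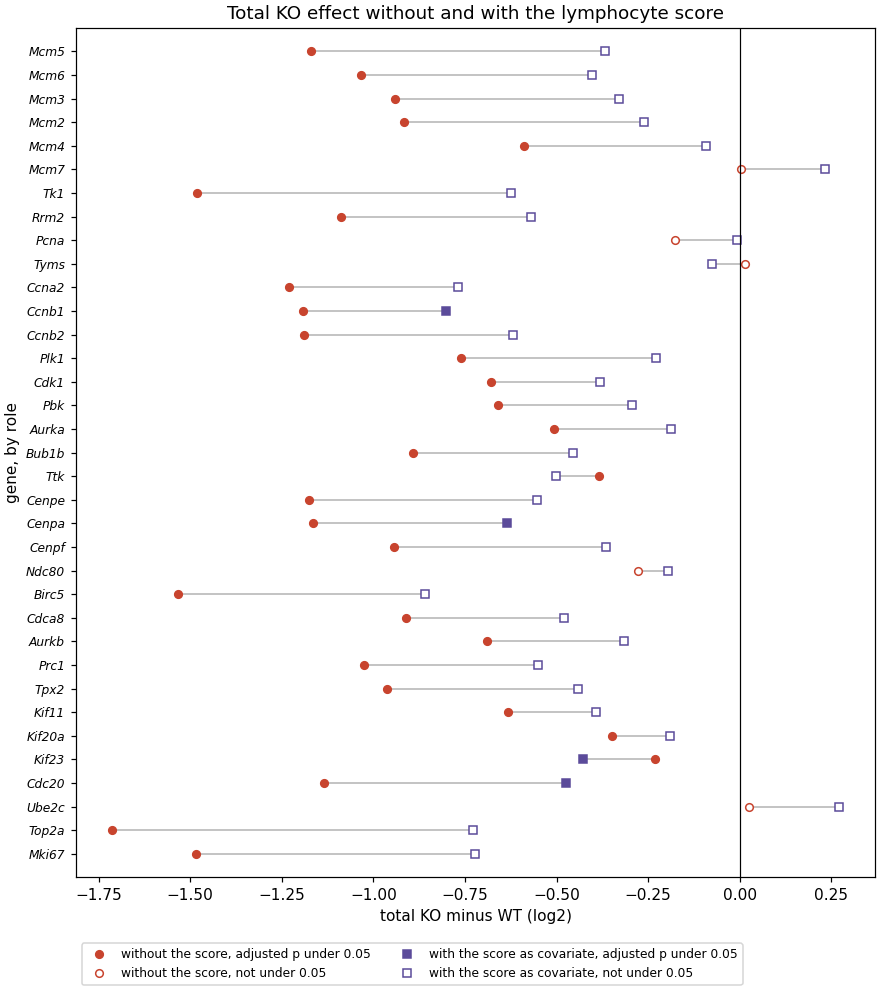
Total KO minus WT on the log2 scale (x axis) for 35 cell cycle genes (y axis, by role), from the fit without the lymphocyte score (circles) and with it as covariate (squares), 7 arrays in each group and 26 arrays in the fit. Filled symbols have an adjusted p under 0.05, 30 without and 4 with the score, and most squares lie nearer to 0 than their circles.

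For comparison, slopes were fitted in the same way on the mean of 8 macrophage markers and of 6 adipose progenitor markers, a choice made after the values were seen. On the macrophage score 4 of 35 slopes were called above 0, where 6.21% of all genes were, with 21 at an unadjusted p under 0.05, 32 of 35 above 0 and a median of 0.30. On the progenitor score 0 of 35 were called (limma, 11 with an unadjusted p under 0.05), where 4.35% of all genes were, with 33 of 35 above 0 and a median of 0.29. The macrophage score lay between 10.13 and 11.81 in the total line and between 10.52 and 12.40 in the ChREBPβ line.

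The 35 genes also varied together. Once each group's mean was taken off, the correlation over 26 arrays between 2 of the genes had a median of 0.72 over 595 pairs, and ran from -0.58 to 0.96. Tpx2 was the most alike to the rest, with a median r of 0.86, followed by Tk1 with 0.85. The least alike were Tyms (-0.28), Kif23 (-0.13), Ndc80 (0.19), Ttk (0.42) and Mcm7 (0.55). Of these, Tyms, Ndc80 and Mcm7 are also genes that did not fall in total KO. These correlations describe genes that share arrays, tissue pieces and normalisation.

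Wash batch, the label of the array washes, cut across the groups. Within the 4 wash batches, with 1 or 2 arrays of total KO and of total-line WT in each, the median total KO difference of the 35 genes was -0.33, -0.71, -0.77 and -1.48, and 27, 33, 32 and 33 genes lay below 0. For Mki67 it was -0.59, -1.20, -1.38 and -2.32. The ChREBPβ KO difference could be had in 3 batches, with medians of -0.44, 0.26 and 0.12. The median slope on the lymphocyte score was above 0 in every batch, between 0.17 and 1.31. These slopes were fitted on 6, 5, 7 and 8 arrays with a mean for each group, so few arrays carry them. The slope of 1.31 is that of the batch with 5 arrays. The comparison of the 2 WT groups gave -0.65, -0.99 and -1.22 in batches 2 to 4, and 0.08 in batch 1, where 1 array stood against 1. No slide held both a total KO and a total WT array.

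Other cell cycle genes moved both ways. Of 54 further genes that govern entry, inhibition, replication forks and the Cdk1 switch, 52 were tested, and in total KO 14 rose and 15 fell, with a median difference of 0.03, where 26.2% of all genes rose and 19.7% fell. In ChREBPβ KO 0 were called, with 4 at an unadjusted p under 0.05. Between the WT groups 14 were higher and 17 lower in the ChREBPβ line, where 26.4% and 19.2% of all genes were. The difference of the KO effects was called above 0 for 6 and below 0 for 5, beside 9.94% and 13.1% of all genes. The slope on the lymphocyte score was called above 0 for 9, beside 7.57%.

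**Figure D5:**
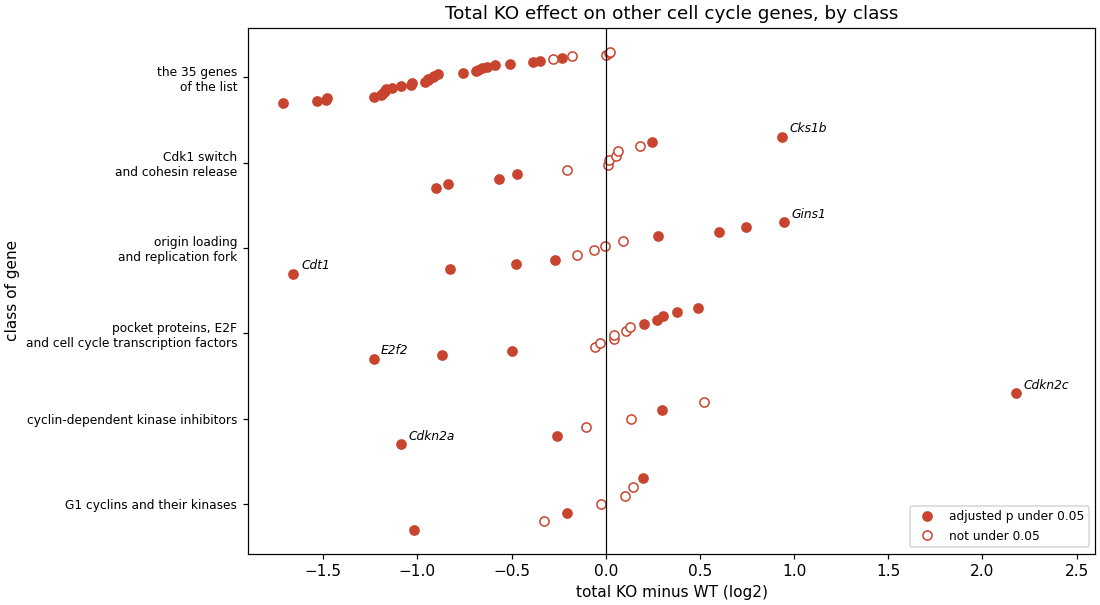
Total KO minus WT on the log2 scale (x axis) for 52 other cell cycle genes in 5 classes and, in the top row, the 35 genes of the list (y axis; points within a class are spread by rank). Filled points have an adjusted p under 0.05: the other classes lie on both sides of 0, from -1.66 (Cdt1) to 2.18 (Cdkn2c), while the filled points of the top row all lie below 0.

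The largest rise was that of Cdkn2c, which encodes the Cdk4 and Cdk6 inhibitor p18. Its mean was 13.14 in total-line WT, 15.31 in total KO, 14.28 in ChREBPβ-line WT and 14.53 in ChREBPβ KO, and the total KO difference was 2.18 ± 0.18 (adjusted p = 5.96e-10). Gins1, a subunit of the replicating helicase, rose by 0.95 and Cks1b, a small Cdk-binding protein, by 0.93 (adjusted p = 3.73e-08 and 5.2e-10). Once the lymphocyte score was in the fit, these 3 differences were 1.97, 0.90 and 0.87, all called, among 8 higher and 1 lower of the 52, where 9.37% of all genes were higher and 5.66% lower.

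The largest falls were those of Cdt1, E2f2 and Cdkn2a. Cdt1, which loads the MCM helicase, fell by 1.66 ± 0.26 (adjusted p = 1.28e-05), and its slope on the lymphocyte score was 0.49 (adjusted p = 4.98e-05). E2f2, an activating E2F, fell by 1.23 (adjusted p = 0.000104), and Cdkn2a, the locus of p16 and p19ARF, by 1.09 (adjusted p = 0.000105). By class, 2 of 7 G1 cyclins and kinases fell and 1 rose, 2 of 7 inhibitors fell and 2 rose, and 3 of 14 pocket proteins, E2F and related factors fell and 5 rose. Of 12 genes of origin loading and the fork 4 fell and 4 rose, and of 12 of the Cdk1 switch and cohesin release 4 fell and 2 rose. Foxm1, named here after its values were seen as the factor that works at CHR promoters with B-Myb, fell by 0.50 (adjusted p = 0.0119), and Mybl2, the gene of B-Myb, had no tested probe. With the lymphocyte score in the fit the Foxm1 difference was -0.01 (limma, adjusted p = 0.983). In the same class Rbl2 rose by 0.30 and Lin54 by 0.20 (limma, adjusted p = 0.000778 and 0.0354). Rbl1, E2f4 and Lin9 were not called.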

How the data were processed

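Total RNA of inguinal subcutaneous WAT was measured on 26 one-colour Agilent arrays, 1 per labelled replicate. Per the file headers, intensity values were extracted by the authors with Agilent Feature Extraction 10.10.1.1, and probe positions refer to build mm9. The deposited table holds the authors' log2 values, quantile-normalised, for 40168 probes, with 97 missing values.

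Here the median intensity of each spot was filtered after the methods: a probe was kept when its spots were found, significantly positive and clear of the background in 21 or more of 26 arrays, or in 75% of a group. Values were log2-transformed, 1747 outlier spot values were set missing, and the rest were quantile-normalised. Replicate spots were then reduced to their median. This left 38832 of 56605 probes and 25407 gene names. The number of arrays limits the precision. limma 3.58.1 in R 4.3.3 fitted 1 mean per group over all arrays, and p-values were adjusted by Benjamini-Hochberg over all probes, with calls at 0.05. In the slope fit, a missing Blk value on 1 array took its group's mean. The script was tested on simulated data. The members and gene lists were chosen with earlier results of these data known. Named genes are all members and the 3 largest called rises and falls of the other list. Foxm1, Mybl2, Rbl1, Rbl2, Lin9, Lin54 and E2f4 were added for the promoter motifs. Alternatives were the deposited table, other background corrections and normalisations, no filter, slide, wash batch and replicate blocks, array weights, marker scores as covariates, and leaving out each array.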

Additional observations from a re-analysis of the deposited data

Results flagged for a closer look

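Of 144 groups of values examined (35 genes and their mean, in 4 groups each), 3 had an array far from the rest, and chance alone flags about 1 in 20 groups. Mki67 was 7.48 in replicate 1 of ChREBPβ KO, against 8.06 in the next lowest array of the group. Ttk was 4.14 in the same replicate, against 4.63 in the next. Kif11 was 4.60 in replicate 4 of total-line WT, against 5.33 in the next. Replicate 1 of ChREBPβ KO also had the highest lymphocyte score of its group, 8.22, and the lowest mean of the 35 genes, 7.17.

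The KO effect differed between the 2 lines, by the test of the difference itself, for 25 of the 35 genes. All 25 were above 0, where 9.94% of all genes were called above 0 and 13.1% below. Kif11, which passed the filter only through total-line WT, is among them. With the slide as a fixed block, or with the lymphocyte score as covariate, 0 were called. The ChREBPβ effect minus the total effect was 1.71 for Top2a, 1.48 for Tk1, 1.47 for Mki67, 1.40 for Birc5, 1.18 for Mcm5 and 1.18 for Ccna2. It was 1.13 for Cenpe, 1.07 for Cdc20, 1.03 for Prc1 and 0.81 for Bub1b. The other tested probes of Prc1 gave 0.57, 0.36, 0.03 and -0.12, of which only that at 0.36 passed the test (limma, adjusted p = 0.0148). total-line WT was the high group in each of these genes.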

How the results depend on the processing

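Leaving out each array in turn gave 29 to 31 genes called in total KO, 0 to 0 in ChREBPβ KO, 19 to 27 for the difference of the KO effects, 29 to 32 for the 2 WT groups and 11 to 23 for the slope on the lymphocyte score, 11 being without WT replicate 4 of the total line. With the slide as a fixed block, 23 genes were called in total KO and 26 for the 2 WT groups. In that setting 0 were called for the difference of effects and 0 for the slope. Over all gene names, 5600, 8027, 406 and 402 were called in these comparisons. The labels do not say whether replicate numbers pair the samples. The deviations of same-numbered samples had r from -0.36 to 0.51 in the total line and from -0.33 to 0.14 in the ChREBPβ line. In the total line 3 of 6 pairs had an r over 0.1, and these values do not settle the pairing. With the replicate number as a block, 10 genes were called for the difference of effects and 2 for the slope. Over all 25407 gene names, 3809 and 520 were. Such blocks left 28 called in total KO, 0 in ChREBPβ KO and 29 for the WT groups, beside 10159, 5 and 10912 over all gene names. Array weights gave 11 slopes, and the ChREBPβ line alone gave 0, with a median slope of -0.0103 and slopes of -0.0298 for Bub1b, -0.0149 for Cenpe, -0.019 for Mki67 and -0.0619 for Top2a.

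The lymphocyte score as covariate left 4 genes called in total KO, 0 for the difference of effects and 1 for the WT groups. The lymphocyte and skeletal muscle scores together left 3, 0 and 0. Over all 25407 gene names, 3818, 1623 and 1167 were called with the lymphocyte score, and 3516, 1495 and 959 with both. Between the WT groups the median of the cell cycle genes then turned to 0.0352 and 0.0543. With the lymphocyte score the difference turned to 0.59 for Mcm5, 0.16 for Tk1, 0.23 for Cenpe, 0.17 for Prc1, 0.10 for Cdc20 and 0.26 for Top2a. With both scores it turned to 0.59 for Mcm5, 0.18 for Tk1, 0.0015 for Bub1b, 0.24 for Cenpe, 0.21 for Prc1, 0.14 for Cdc20, 0.0284 for Mki67 and 0.32 for Top2a. None of these turned values passed the test, and the cause was not tested. Background correction set the size: the total KO median was -1.32 with the scanner's background-subtracted signal and -0.62 with normexp, and the calls numbered 30 and 29. Over all gene names, 11716 and 11761 were called in these fits. The deposited table called 32 of 37 genes in total KO, and 11993 over all its gene names.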
